A study of Mus musculus with 10 samples.

Results

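The 8 genes described here, *Meis1*, *Meis2*, *Meis3*, *Pbx2*, *Pbx3*, *Pbx4*, *Pknox1* and *Pknox2*, encode TALE (3 amino acid loop extension) homeobox proteins, the cofactors with which Hox proteins bind DNA. Their members on the array were chosen as every non-control probe whose transcript accession belonged to one of these genes, whatever its signal. This gave 11 of 55681 probes, and 8 of the 8 genes had at least 1. *Meis3* had 3 probes, *Pknox1* had 2 and the others 1 each. A gene with several probes is given by the probe with the highest mean over the arrays, and its other probes are described beside it.

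TALE proteins carry a divergent homeodomain and work mainly as partners. Meis and Pknox (also called Prep) proteins bind Pbx proteins in solution, which keeps Pbx in the nucleus, and the pair then binds DNA together with a Hox protein. Hox proteins from the anterior and middle of the clusters contact Pbx through a short tryptophan motif, whereas posterior Hox proteins such as Hoxa13 can bind Meis proteins directly. The question for these genes was therefore whether the partners of the Hox proteins are transcribed in ES cells, and whether their levels differed where 5’ Hoxa genes had been targeted for activation.

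All cells were E14 ES cells of the 129/Ola background, a mouse line grown on gelatin with fetal calf serum and 1000 U/ml of Lif, a cytokine that keeps them undifferentiated. In the *Hottip* gRNA group (4 arrays) they received a pool of 5 gRNA plasmids against the promoter of *Hottip*, a lncRNA gene at the 5’ end of the Hoxa cluster, and in the *Hoxa13* gRNA group (3 arrays) a pool of 5 against the *Hoxa13* promoter. Both pools went in with dCas9-VP160, a nuclease-dead Cas9 that carries a transcription activation domain. The control group (3 arrays) is labelled as transfected with control gRNAs, and the protocol names non-targeting gRNAs and dCas9 alone. The published study describes its array changes as relative to dCas9 without VP160. By that account the control lacked the VP160 domain as well as the targeting gRNAs, and comparisons with it cannot tell these apart. All groups shared the line, the medium, the plasmid transfection and a selection of 24 hrs in 2 μg/ml puromycin that began 24 hrs after it, and RNA was taken at 48 hrs. The series calls the replicates biological.

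The gRNA targets separate the groups, so the target of 1 *Hottip* gRNA is shown with its PAM in capitals, and below it the closest NGG site in the promoter window of a TALE gene, with the bases that differ from the gRNA in capitals. Promoter windows are 300 bases of RefSeq sequence (GRCm38.p6), from 250 before to 50 after the gene start, and 5 of the 8 genes (*Meis1*, *Meis2*, *Meis3*, *Pbx2* and *Pbx4*) were matched to a window. The *Hottip* site lies at chr6:52262545-52262567 and the *Pbx2* site at chr17:34592056-34592078, both on the minus strand and upstream of the gene.
Hottip, target of gRNA mHottip_pro_sg5: gggatcagggaaggttttatTGG
Pbx2, closest site to mHottip_pro_sg5: gggCGcTgggGTggGtGtCtcgg
Each of the 10 gRNAs matched the window of its own target exactly. In the TALE windows the closest site of any gRNA had 8 mismatches, in *Pbx2*, and 47.0% of all 32851 windows held a site with as few. *Meis1*, *Meis2*, *Meis3* and *Pbx4* had a closest site with 9 mismatches, as few as in 80.2% of windows. Of motifs that TALE proteins are known to bind, TGACAG (bound by Meis and Pknox) and TGATTNAT (bound by Pbx with Hox), searched on both strands, were found in 19.2% and 3.22% of all windows, and in 0 of the 5 TALE windows.

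Levels are given as the log2 processed signal of a spot minus that of the 75th percentile of its array, so that 0 is the 75th percentile. Each gene's level was compared only with itself, since probes differ in brightness for the same amount of RNA. The summed levels of gene lists are the exception. They add probes of different genes, so that the brightest probes weigh most, and they lack any spot left out as an outlier. A probe counts as detected on an array where the scanner software flagged it as well above background. On an array, 31.9% to 41.4% of probes were well above background, and the 75th percentile of the raw scale lay between 586 and 2572 intensity units. *Hoxa13* gRNA replicates 1 and 2 were on slide 1 and all other arrays on slide 2, so a difference of the *Hoxa13* gRNA group could be read within a slide only from its replicate 3. Also, *Hoxa13* gRNA replicate 1 had a spike-in slope of 1.16, against 0.900 to 0.982 elsewhere. The 9 ES cell markers on the fixed list were well above background on all 10 arrays. *Hoxa13* itself, the target of the second pool, was at least 144-fold higher in *Hottip* gRNA cells than in the control (limma, adjusted p = 0.000111), where 0 of 3 arrays detected it. In the *Hoxa13* gRNA cells it was also detected on 0 of 3 arrays, so that this group is named by its label and no rise of its target was measured. These values are from the brightest *Hoxa13* probe. The published study reports that *Hoxa13*, and no other Hoxa gene, rose with these gRNAs, and the reason for the difference was not tested.

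5 of the 8 TALE genes were well above background on all 10 arrays. These were *Meis1* and *Meis2*, *Pbx2* and *Pbx3*, and *Pknox1*, so that each of the 3 subfamilies had at least 1 detected member in ES cells, with or without targeted activation. That is 62.5% of the 8 genes, beside 40.9% of the 20972 genes with a named probe. The other 3, *Meis3*, *Pbx4* and *Pknox2*, were well above background on some arrays. On single arrays, 6 to 8 of the 8 genes were detected in the control, 5 or 6 in *Hottip* gRNA cells and 7 or 8 in *Hoxa13* gRNA cells. Of all probes, 35.5% to 41.4% were detected on control arrays, 31.9% to 40.3% on *Hottip* gRNA arrays and 37.0% to 41.1% on *Hoxa13* gRNA arrays.

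*Meis1*, which partners posterior Hox proteins and is known for its role with *Hoxa9* in leukaemia, had levels of 0.25, −0.06 and 0.67 in control replicates 1 to 3. In *Hottip* gRNA cells it was at 0.61, 0.77, 0.92 and 0.24, and in *Hoxa13* gRNA cells at −0.78, 0.59 and 0.67. The groups overlapped, and the lowest value was that of *Hoxa13* gRNA replicate 1. *Meis2*, expressed in limb, heart and brain, was at 1.16, 0.73 and 1.54 in the control and at 1.17, 1.04 and 0.78 in *Hottip* gRNA replicates 1 to 3, and its spot on *Hottip* gRNA replicate 4 was flagged as an outlier and left out. In *Hoxa13* gRNA cells *Meis2* was at 1.08, 2.46 and 2.28. Of these, replicates 2 and 3 lay above every other array, while replicate 1 lay among the control values.

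*Pknox1*, the broadly expressed Prep1 gene, was at 0.41, 0.23 and −0.16 in the control and at −0.35, 0.18, 0.62 and 0.20 in *Hottip* gRNA cells. *Hoxa13* gRNA replicates 1 and 3 had −0.43 and 0.12, and replicate 2 was left out as an outlier spot. The group means of *Pknox1* were 0.16 ± 0.29 (SD, n = 3) in the control, 0.16 ± 0.40 (SD, n = 4) in *Hottip* gRNA cells and −0.15 ± 0.39 (SD, n = 2) in *Hoxa13* gRNA cells. Each difference between these means was smaller than its SE in limma.

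*Pbx2*, a broadly expressed Pbx gene, was at 2.38, 2.07 and 2.43 in the control, at 1.78, 2.35, 2.70 and 1.90 in *Hottip* gRNA cells and at 3.14, 2.72 and 2.58 in *Hoxa13* gRNA cells. All 3 *Hoxa13* gRNA arrays lay above the 3 control arrays, and *Hottip* gRNA replicate 3 lay among the *Hoxa13* gRNA values. *Pbx3*, which acts in hindbrain circuits and is also known from leukaemia, was at 2.03, 1.75 and 1.86 in the control and at 1.58, 1.80, 2.37 and 1.52 in *Hottip* gRNA cells. In *Hoxa13* gRNA cells *Pbx3* was at 0.71, 0.65 and 2.34. The 2 low values are those of slide 1, and replicate 3, on the slide of the other groups, was above the 3 control arrays.

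**Figure D1:**
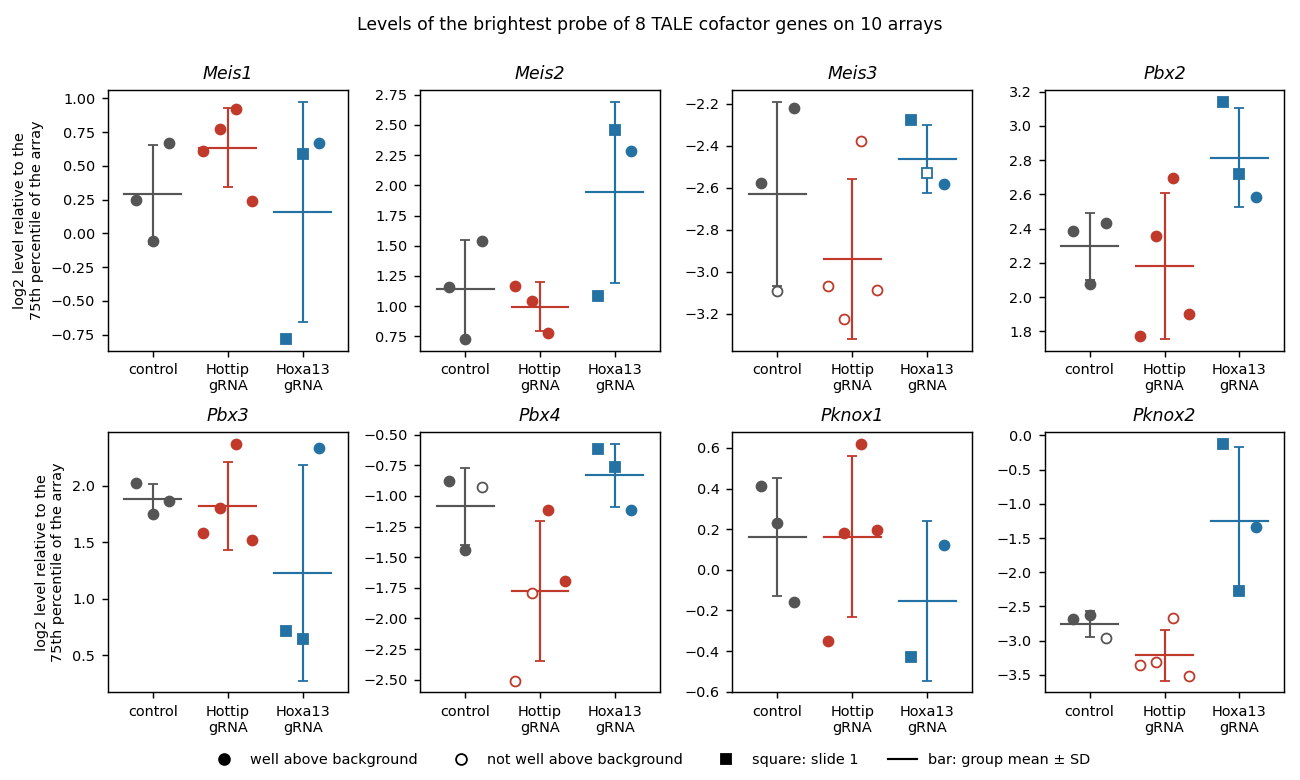
Level of the brightest probe of each TALE gene (y axis, log2 relative to the 75th percentile of the array, a scale of its own in each panel) on each array of the 3 groups (x axis), with bars for the group mean and SD; filled points are well above background, open points are not, and squares are the arrays of slide 1. All points of *Meis1*, *Meis2*, *Pbx2*, *Pbx3* and *Pknox1* are filled, *Pbx3* is low on the 2 arrays of slide 1 (0.65 and 0.71), and *Pknox2* is open on all 4 *Hottip* gRNA arrays and filled on all 3 *Hoxa13* gRNA arrays.

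The 3 dimmer genes were detected least often in *Hottip* gRNA cells. *Pknox2* (Prep2), a paralogue of *Pknox1* with a narrower expression, was well above background on 2 of 3 control arrays, 0 of 4 *Hottip* gRNA arrays and 3 of 3 *Hoxa13* gRNA arrays. Its levels were −2.68, −2.62 and −2.97 in the control, −3.36, −3.31, −2.67 and −3.51 in *Hottip* gRNA cells, and −0.12, −2.27 and −1.34 in *Hoxa13* gRNA cells. The *Hoxa13* gRNA values lay above all others, on both slides. They also spread the most, with an SD of 1.08 (n = 3) against 0.19 (n = 3) in the control and 0.37 (n = 4) in *Hottip* gRNA cells.

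*Pbx4*, the Pbx gene best known from testis, was well above background on 2 of 3 control, 2 of 4 *Hottip* gRNA and 3 of 3 *Hoxa13* gRNA arrays. The arrays that did not detect *Pbx4* were control replicate 3 and *Hottip* gRNA replicates 1 and 2. Its levels were −0.88, −1.44 and −0.93 in the control, −2.51, −1.79, −1.11 and −1.69 in *Hottip* gRNA cells, and −0.62, −0.76 and −1.12 in *Hoxa13* gRNA cells. The lowest 3 values were *Hottip* gRNA arrays, and *Hottip* gRNA replicate 3 was just above the lowest *Hoxa13* gRNA array. *Meis3*, a hindbrain Meis gene, was well above background on 2 of 3 control, 0 of 4 *Hottip* gRNA and 2 of 3 *Hoxa13* gRNA arrays. Its levels were −2.58, −3.09 and −2.22 in the control, −3.07, −3.22, −2.38 and −3.09 in *Hottip* gRNA cells, and −2.28, −2.53 and −2.58 in *Hoxa13* gRNA cells, so that the 3 groups overlapped.

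The arrays differed in how dim a probe could be and still be detected. The lowest level at which any probe was well above background lay between −2.69 and −2.32 on the *Hottip* gRNA arrays, against −3.99 to −3.08 in the control and −3.38 to −3.11 in *Hoxa13* gRNA cells. *Pknox2* was detected at −2.68 and −2.62 on control arrays and not detected at −2.67 on *Hottip* gRNA replicate 3. This level did not by itself decide the flag, since *Pbx4* was not detected on control replicate 3 and *Hottip* gRNA replicate 2 although it lay 2.40 and 0.74 above the lowest detected level of those arrays. The part of this threshold in the count of detected genes was not tested. In bulk RNA, fewer cells that express a gene and less of its RNA per cell cannot be told apart.

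**Figure D2:**
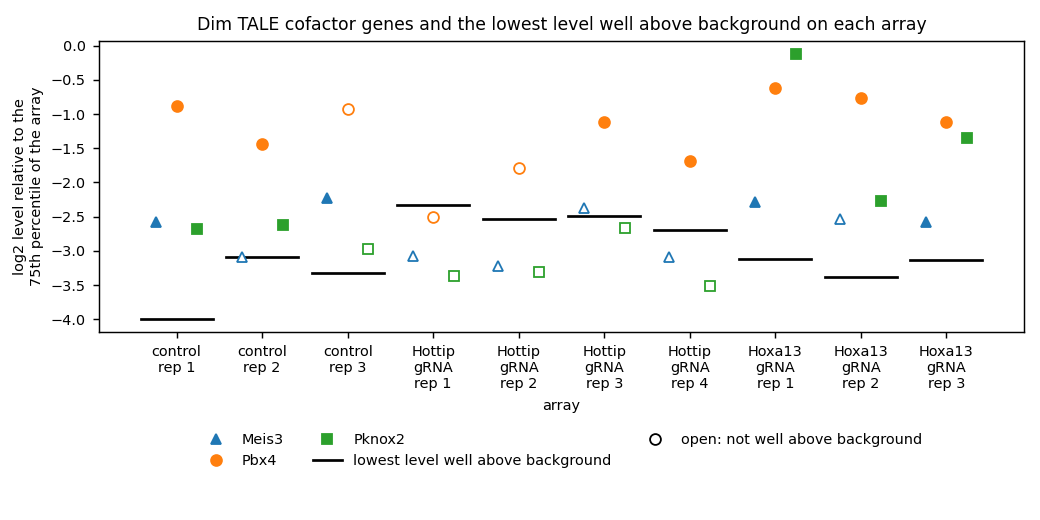
Levels of *Meis3* (triangles), *Pbx4* (circles) and *Pknox2* (squares) on each of the 10 arrays (x axis) in log2 relative to the 75th percentile of the array (y axis), filled where well above background, with a black line at the lowest level of any probe well above background on that array. The line lies higher on the 4 *Hottip* gRNA arrays (−2.69 to −2.32) than on the other 6 (−3.99 to −3.08), and *Pknox2* lies above −2.62 only on the 3 *Hoxa13* gRNA arrays.

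For *Hottip* gRNAs against the control, the arrays on which *Hoxa13* rose, 0 of 8 TALE genes were called by limma (Benjamini-Hochberg adjusted p under 0.05 over all tested probes), and 0 of 8 had an unadjusted p under 0.05. Of the 22830 probes tested, 0.718% were called and 8.05% had an unadjusted p under 0.05. *Meis1* had the highest difference, 0.35 ± 0.43 (SE), with an adjusted p of 0.997 in limma. *Pbx4* had the lowest, −0.69 ± 0.39 (SE), with an adjusted p of 0.783 in limma. The differences of *Pknox1* (0.00), *Pbx3* (−0.06), *Pbx2* (−0.12) and *Meis2* (−0.15) were all smaller than their SE. *Meis3* and *Pknox2* had measured differences of −0.31 and −0.46, but 0 of 4 *Hottip* gRNA arrays detected them, so that they have no fold there.

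The 95% intervals show what sizes of change are compatible with these values. Over the 8 genes they reached from −1.55 (*Pbx4*) to 1.29 (*Meis1*) on the log2 scale, each interval taken alone. *Pbx2*, the gene with the narrowest, had an interval of −0.89 to 0.66. Changes within these intervals remain possible with 4 and 3 arrays. The intervals are not adjusted for the number of probes tested, so their ends are not the smallest change that would have been called. The median difference of the 8 genes was −0.13, beside −0.03 over all tested probes, and 0 of 8 genes had groups that did not overlap, beside 13.7% of tested probes.

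For *Hoxa13* gRNAs against the control, 0 of 8 TALE genes were called by limma, beside 0.175% of the 22830 probes tested, and 1 of 8, *Pknox2*, had an unadjusted p under 0.05, beside 11.0% of probes. *Pknox2* was higher by 1.51 ± 0.52 (SE) on the log2 scale, a 2.85-fold difference with a 95% interval of 0.37 to 2.65, and its adjusted p was 0.447 in limma. All 3 *Hoxa13* gRNA arrays were above all 3 control arrays, which in an exact permutation test gave p = 0.1 (two-sided), the smallest that 3 against 3 allows. Replicate 3 alone, on the slide of the control, gave a difference of 1.41 for *Pknox2*. In the log2 values deposited by the authors the difference was 1.15 and the groups overlapped, with 8.63 to 9.93 in *Hoxa13* gRNA cells and 7.43 to 8.68 in the control.

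*Pbx2* was the other gene whose groups did not overlap in this comparison (2 of 8 genes, beside 23.9% of tested probes), with a difference of 0.52 ± 0.38 (SE) and a limma adjusted p of 0.571. In the authors’ log2 values the difference of *Pbx2* was 0.35 and its groups overlapped, and with the slide as a block it was 0.29. *Meis2* differed by 0.80 ± 0.46 (SE), with a limma adjusted p of 0.497, and in the authors’ log2 values by only 0.19. *Pbx3* differed by −0.65 ± 0.49 (SE), with a limma adjusted p of 0.579. This value rested on slide 1, and with the slide as a block, or on slide 2 alone, the difference of *Pbx3* was 0.45. Slide 1 held only *Hoxa13* gRNA arrays. Here and below, a difference of this group with the slide as a block therefore rests on its replicate 3 alone, as on slide 2. The remaining genes had differences of −0.31 (*Pknox1*), −0.13 (*Meis1*), 0.17 (*Meis3*) and 0.25 (*Pbx4*), each smaller than its SE. With the slide as a block the difference of *Meis1* was 0.38 and that of *Pbx4* −0.03, and without *Hoxa13* gRNA replicate 1 that of *Meis1* was 0.34.

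The array-wide centre also moved in this comparison. The median difference over all tested probes was 0.19, against −0.05 in the authors’ log2 values, and that of the 8 TALE genes was 0.21. Relative to the median of all probes *Pknox2* was higher by 1.32 and *Pbx2* by 0.33. Of the 9 ES cell markers, 3 had an unadjusted p under 0.05 in limma, all higher in *Hoxa13* gRNA cells and 0 of them called. These were *Nanog* (1.74), *Esrrb* (1.33) and *Pou5f1* (1.18), transcription factors of pluripotency. The summed level of the list lay between 8.20 and 8.58 in *Hoxa13* gRNA cells and between 6.97 and 8.47 in the control. *Tdgf1*, another marker of the list, had a value on only 2 of 3 *Hoxa13* gRNA arrays. The part of the list in the *Pknox2* and *Pbx2* values was not tested.

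**Figure D3:**
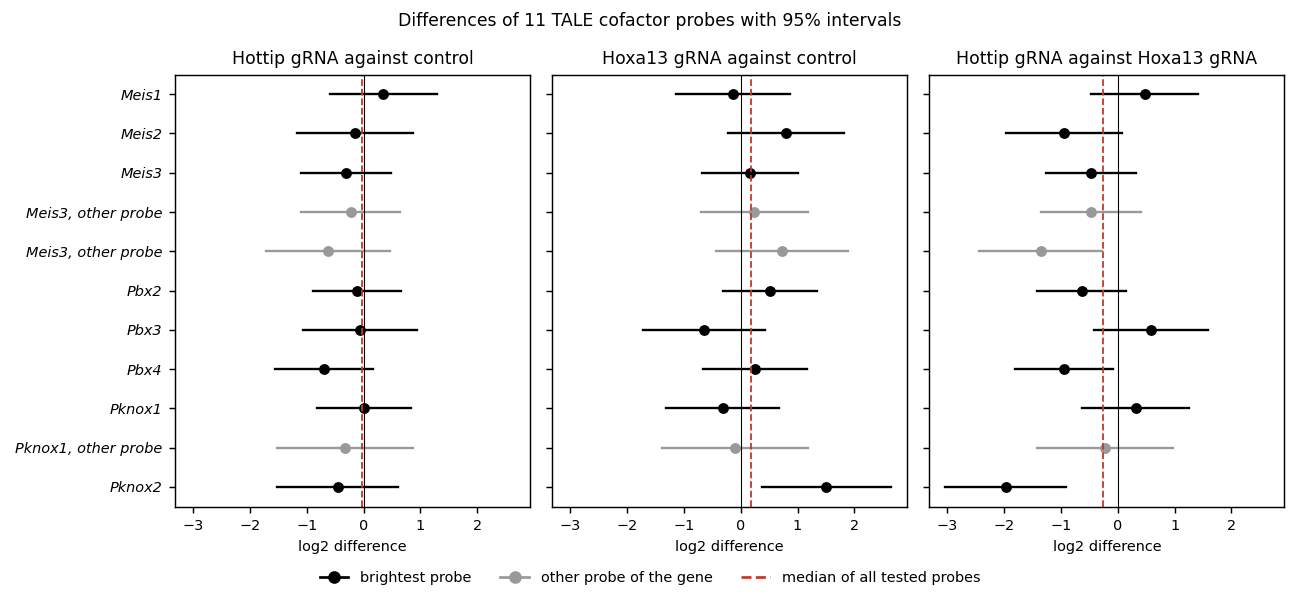
Log2 difference (x axis) of each of the 11 TALE probes (y axis) in the 3 comparisons, with 95% intervals from limma; black points are the brightest probe of a gene, grey points its other probes, and the dashed red line is the median of all tested probes. In *Hottip* gRNA cells against the control all 11 intervals hold 0. *Pknox2* has the largest difference in both comparisons that involve *Hoxa13* gRNA cells (1.51 and −1.97), with intervals that leave out 0. In *Hottip* against *Hoxa13* gRNA cells the intervals of *Pbx4* (−1.81 to −0.08) and of a dimmer *Meis3* probe (−2.44 to −0.27) also leave out 0.

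The 2 gRNA pools were also compared with each other, since both groups received dCas9-VP160. These values share arrays with both comparisons above. In *Hottip* gRNA cells against *Hoxa13* gRNA cells, 0 of 8 TALE genes were called by limma, beside 0.381% of the 22825 probes tested, and 2 of 8 genes had an unadjusted p under 0.05, beside 11.9% of probes. Both were lower in *Hottip* gRNA cells. *Pknox2* had a measured difference of −1.97 ± 0.48 (SE), and since 0 of 4 *Hottip* gRNA arrays detected it, it was at least 2.40-fold lower there, with a limma adjusted p of 0.148. Its groups did not overlap, and the exact permutation test gave p = 0.0286 (two-sided), the smallest that 4 against 3 arrays allows. Within slide 2 the difference was −1.87, and in the authors’ log2 values it was −1.69, again with no overlap of the groups.

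*Pbx4* was lower by 0.94 ± 0.39 (SE) on the log2 scale in *Hottip* gRNA cells, with a limma adjusted p of 0.388 and an exact permutation p of 0.0857 (two-sided), and its groups overlapped. With the slide as a block its difference was −0.66. *Meis2* differed by −0.95 ± 0.46 (SE) and *Pbx2* by −0.63 ± 0.35 (SE), with limma adjusted p-values of 0.433 and 0.466. *Meis1* (0.48), *Pbx3* (0.59) and *Pknox1* (0.32) had positive differences, and with the slide as a block these were −0.03, −0.52 and 0.04. Without *Hoxa13* gRNA replicate 1, the difference of *Meis1* was 0.0065. The median of the 8 genes was −0.55, beside −0.26 over all tested probes, and 1 of 8 genes had groups that did not overlap, beside 17.7% of tested probes.

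The probes of one gene were compared with each other over the arrays. The 3 *Meis3* probes correlated with Pearson r between 0.685 and 0.835 over 10 arrays, and the 2 *Pknox1* probes with r = 0.481 over 9 arrays. All points of these correlations share an array and its scaling, so they are descriptions. All 3 *Meis3* probes were below detection on the 4 *Hottip* gRNA arrays. A *Meis3* probe other than the brightest (A_55_P2185940) was at −3.80, −3.39, −3.57 and −4.84 in *Hottip* gRNA cells and at −2.10, −2.12 and −3.41 in *Hoxa13* gRNA cells. This was a measured difference of −1.36 ± 0.49 (SE) with a limma adjusted p of 0.335, while the brightest *Meis3* probe had −0.47 and an adjusted p of 0.560. The high values of A_55_P2185940 were the 2 arrays of slide 1, and *Hoxa13* gRNA replicate 3 lay at the level of the *Hottip* gRNA arrays. The dimmer *Pknox1* probe (A_52_P431894) was well above background on 6 of 10 arrays and differed between groups by −0.33, −0.10 and −0.23 in the 3 comparisons, all smaller than its SE.

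**Figure D4:**
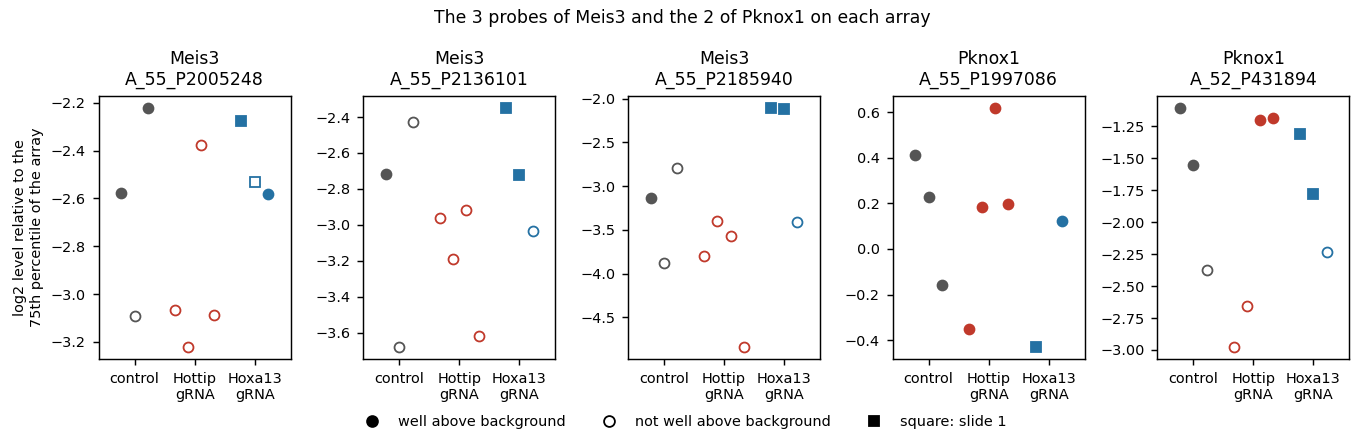
Levels (y axis, log2 relative to the 75th percentile of the array, own scale per panel) of the 3 *Meis3* probes and 2 *Pknox1* probes on each array of the 3 groups (x axis), filled where well above background and square on slide 1. All *Meis3* points of *Hottip* gRNA cells are open, and the 2 squares of A_55_P2185940 (−2.10 and −2.12) lie above its other points.

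The other genes that act with these cofactors were described from fixed lists. Among the 39 Hox genes on the array, the partners themselves, 20 were detected on 0 of 10 arrays and 11 were tested. 2 of the 11 were called higher in *Hottip* gRNA cells than in the control and 0 lower, beside 0.718% of all tested probes called. These were *Hoxa13* and *Hoxa10*, the latter at least 4.99-fold higher (limma adjusted p = 0.0017). Both passed the filter for testing (detection on 3 or more of 10 arrays) only through the *Hottip* gRNA arrays, where they are high. The count of called genes is therefore a description. The *Hox* sum (log2 of the summed levels) lay between 3.68 and 4.74 in *Hottip* gRNA cells, 1.94 and 2.73 in the control, and 1.96 and 2.22 in *Hoxa13* gRNA cells. In *Hottip* gRNA cells the mean level of the *Hoxa13* probe alone was 3.70, beside −1.15 for *Hoxa10*. Against *Hoxa13* gRNA cells 3 of 11 were called, *Hoxa13*, *Hoxa10* and *Hoxb13*, all higher in *Hottip* gRNA cells, beside 0.381% of all tested probes. *Hoxb13*, a posterior gene of another cluster, was at least 6.70-fold higher (limma adjusted p = 0.0235). Without the *Hottip* gRNA arrays it too would not have passed the filter. In *Hoxa13* gRNA cells against the control, 0 of 11 were called. In *Hottip* gRNA cells against the control, *Hoxb9* and *Hoxb13* had unadjusted p-values under 0.05 only (limma adjusted p = 0.376 and 0.0987, both higher in *Hottip* gRNA cells). With outlier spots left out, *Hoxb9* had a value on 2 of 4 *Hottip* gRNA arrays and *Hoxb13* on 3 of 4. *Hoxb13*, detected on 0 of 3 *Hoxa13* gRNA arrays, was at least 1.59-fold lower there than in the control (limma unadjusted p = 0.0323, adjusted p = 0.447).

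The 9 other TALE genes of the list, among them the Tgif repressors and the Iroquois genes, had 0 calls among their 4 tested members in the 3 comparisons. *Tgif1* and *Tgif2* were detected on all 10 arrays. *Mkx*, a tendon homeobox gene, had a difference of 2.75 ± 0.98 (SE) in *Hottip* gRNA cells against the control with an unadjusted p of 0.0231 and an adjusted p of 0.477 in limma. It was well above background on 4 of 4 and 1 of 3 of those arrays, but with outlier spots left out its difference rests on 3 and 2 of them. *Irx4*, *Irx5* and *Irx6* were detected on 0 of 10 arrays.

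All 5 coregulators that bind TALE proteins (*Pbxip1*, *Hdac1*, *Hdac3*, *Ncor1* and *Crebbp*) were well above background on all 10 arrays, and 0 of 5 were called in any of the 3 comparisons. *Pbxip1*, whose product binds Pbx proteins and blocks their contact with DNA, had a difference of 1.15 in *Hoxa13* gRNA cells against the control (limma unadjusted p = 0.0359, adjusted p = 0.447). Only 2 of 3 control arrays had a value for *Pbxip1*. Of 5 other homeobox or bHLH partners of Pbx and Meis, only *En2* was tested, with a difference of 0.96 in *Hoxa13* gRNA cells against the control (limma unadjusted p = 0.0262, adjusted p = 0.447) and of −0.80 in *Hottip* against *Hoxa13* gRNA cells (limma unadjusted p = 0.0419, adjusted p = 0.401). *En1*, *Myod1* and *Tlx1* were detected on 0 of 10 arrays. The 9 retinoid response genes were included because retinoic acid is known to raise Meis and Pbx genes in ES and carcinoma cells. 0 of the 7 tested were called in any comparison, and their median difference was 0.08 in *Hottip* gRNA cells against the control.

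1 marker of another cell type was called in *Hottip* gRNA cells and 5 other tested markers had an unadjusted p under 0.05. *Cdx2*, a trophoblast and posterior gene, was called (at least 13.3-fold higher than in the control, limma adjusted p = 0.00105), and was also called higher than in *Hoxa13* gRNA cells (limma adjusted p = 0.00679). It was 1 of 2 tested of the 4 trophoblast markers, 2 of which were detected on 0 of 10 arrays. Of all tested probes, 0.718% were called in *Hottip* gRNA cells against the control. *Cdx2* passed the filter for testing only through the *Hottip* gRNA arrays, where it is high. The other tested trophoblast marker, the keratin gene *Krt8*, had a difference of 1.72 (limma unadjusted p = 0.0148, adjusted p = 0.392). It had a value on 3 of 4 *Hottip* gRNA arrays. The summed level of the 4 markers lay between 0.09 and 4.40 in *Hottip* gRNA cells and between 1.24 and 1.68 in the control. The lowest of these sums is that of an array without a *Krt8* value, so it cannot be set against the control. The endoderm markers, with a summed level of 2.08 to 2.95 against 0.88 to 1.41, had 0 calls among 3 tested, and *Gata6*, an endoderm transcription factor, had a difference of 1.66 (limma unadjusted p = 0.000989, adjusted p = 0.0929). *Gata6* dominates this sum, with mean levels of 2.43 in *Hottip* gRNA cells and 0.77 in the control. *Gata4* (−1.80 and −2.38), *Sox17* (−2.01 and −2.50) and *Foxa2* (−2.65 and −3.07) were far dimmer. For the neural, mesoderm and fibroblast lists there were 0 calls among 3, 1 and 2 tested markers. Their members with an unadjusted p under 0.05 were the neural gene *Sox1* (−1.76, limma adjusted p = 0.121), the mesoderm gene *Eomes* (0.88, adjusted p = 0.553) and the fibroblast marker *Thy1* (0.76, adjusted p = 0.602). The part of these markers in the TALE levels was not tested.

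The genes with the pattern most like each detected cofactor were taken as the 2 with the highest Pearson r over the arrays, among genes detected on all 10. *Meis1* was most like *Copa* (r = 0.980) and *Emc2* (0.970), *Pbx2* most like *Cyhr1* (0.965) and *Ctu1* (0.961), and *Pbx3* most like *Srsf4* (0.981) and *Mtcl1* (0.965), each over 10 arrays and 5042 genes. *Meis2* was most like *Atg7* (0.919) and *Gm10406* (0.906), and *Pknox1* most like *Cmtm4* (0.960) and *Arid1b* (0.929), each over 9 arrays. None of these is a TALE or Hox gene. The arrays share slides, scaling and group, and the best of so many genes over so few arrays has a high r by selection, so these are descriptions.

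**Figure D5:**
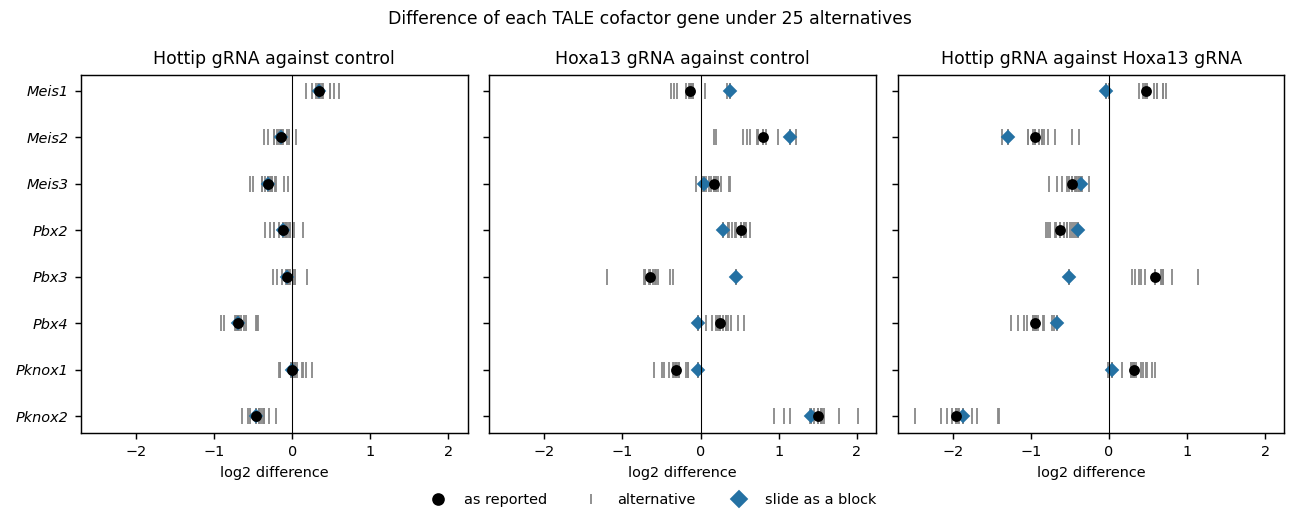
Log2 difference (x axis) of each TALE gene (y axis) in the 3 comparisons as reported (black circles), under each of 25 alternative settings (grey ticks), with the slide as a block marked by blue diamonds. *Pknox2* stays on one side of 0 in all 3 panels, and *Pbx3* changes side with the slide as a block in both comparisons that involve *Hoxa13* gRNA cells (from −0.65 to 0.45 and from 0.59 to −0.52), as does *Meis1* (from −0.13 to 0.38 and from 0.48 to −0.03). The blue diamonds of these comparisons rest on *Hoxa13* gRNA replicate 3 alone.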

How the data were processed

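RNA from 10 ES cell samples was labelled with Cy3 and hybridised to one-colour Agilent mouse arrays. Spot intensities in the deposited scanner files came from Feature Extraction 11.5.1.1, which also flagged outlier spots and spots well above background (other values, as deposited). The processed intensity used here is background-subtracted, and detrended on all arrays but *Hottip* gRNA replicates 3 and 4. A deposited table of log2 values by the authors was used as an alternative, and how it was made is not given in the sources used here. The submitters’ processing notes name limma.

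Here, log2 of the processed intensity minus the 75th percentile of each array was taken, outlier spots were left out (0.312% to 7.28% per array) and spots of a probe averaged. Probes were named through RefSeq accessions (27656 of 55681). The array header names mm9, so gene coordinates are not given, and those of gRNA sites are GRCm38.p6. Differences were fitted with limma 3.58.1 (lmFit, eBayes over all probes) in R 4.3.3, with a mean for each of 3 groups. P-values were adjusted (Benjamini-Hochberg) over probes detected on 3 or more of 10 arrays, with a call at an adjusted p under 0.05. Where a group had no array well above background, a fold was given as a bound, with the dim group set to the lowest detected level of each array or its own value where higher. Permutation tests were exact and two-sided. The fit was also run on simulated data, for the comparisons with the control only. Those data had independent noise and no outlier spots, slide differences or filter, so they do not test the effect of these.

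The members and gene lists were chosen with earlier results of these data known. Some list genes and a sequence are not reported here, and the list counts leave those genes out. By the rule for naming, members were always named, and genes of a list where called or tested with an unadjusted p under 0.05 (cell type markers are named so only in the comparisons with the control), and some list genes were also named to describe detection after their values were seen. The ends of each list, also in that rule, are not all named. The alternatives were other scalings, background correction by normexp (offset 50, on the median spot signal, since a mean signal was not used here), filters, blocks for slide and replicate number, and each array left out. Replicate numbers did not pair the samples (r between −0.37 and 0.18 for same-numbered arrays, with group means removed). Differently numbered arrays of different groups correlated between −0.46 (*Hottip* gRNA replicate 2 with control replicate 1) and 0.44 (*Hottip* gRNA replicate 3 with control replicate 1). Some arrays thus shared patterns across the groups, and the source of these was not tested. The number of arrays limits the precision.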

Additional observations from a re-analysis of the deposited data

How the results depend on the processing

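The count of TALE genes called was 0 of 8 in each of the 3 comparisons under all 25 alternatives, of which 3 were chosen after seeing the data (the percentile without outlier spots, outlier spots kept, and eBayes over the tested probes only). *Pknox2* kept the sign of its difference under all of them, with a range of 0.95 to 2.02 in *Hoxa13* gRNA cells against the control and of −2.48 to −1.40 in *Hottip* against *Hoxa13* gRNA cells. The ends of both ranges were set by leaving out *Hoxa13* gRNA replicate 1 (0.95 and −1.40) or 2 (2.02 and −2.48), and the lowest adjusted p was 0.269 and 0.103. With the slide as a block, where *Hoxa13* gRNA replicate 3 alone carries the differences of its group, *Meis1* and *Pbx4* changed sign. *Meis1* did so in the same comparisons (from −0.13 to 0.38 and from 0.48 to −0.03) and *Pbx4* in the first (from 0.25 to −0.03). *Pbx3* also changed sign (0.45 and −0.52), and was at −1.20 and 1.14 without *Hoxa13* gRNA replicate 3. *Meis2* in *Hoxa13* gRNA cells against the control fell to 0.19 in the authors’ log2 values and to 0.17 with normexp. Median centring moved the median of all tested probes in *Hottip* gRNA cells against the control from −0.03 to 0.21, and the authors’ scaling moved it in *Hottip* against *Hoxa13* gRNA cells from −0.26 to −0.03.

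The counts over all probes (164, 40 and 87 probes called for *Hottip* gRNAs against the control, *Hoxa13* gRNAs against the control and *Hottip* against *Hoxa13* gRNAs) moved more, and the cause was not tested unless named. With the slide as a block they were 413, 73 and 133, and within slide 2 the last was 48. With the replicate number as a block they were 13, 2 and 8. Only 1 of 9 same-numbered pairs of arrays correlated above 0.1, and the block changed no TALE call. With only probes detected on all 10 arrays, fewer were tested (not the 3 dim TALE genes), and the counts were 5, 0 and 0. For *Hottip* gRNAs against the control the count was 108 with median centring, 109 in the authors’ values and 107 with outlier spots kept. For *Hoxa13* gRNAs against the control it was 84 with median centring, 16 without a filter, 22 with only the 2 groups compared, 25 with an intensity trend, 8 with the percentile without outlier spots and 17 with outlier spots kept. For *Hottip* against *Hoxa13* gRNAs it was 31 without a filter, 33 with the percentile without outlier spots and 143 with eBayes over the tested probes only. Leaving out single arrays gave ranges of 56 to 240, 3 to 130 and 11 to 116, with the lowest counts without control replicate 2 (56), without *Hoxa13* gRNA replicate 3 or control replicate 2 (3) and without *Hoxa13* gRNA replicate 2 (11), and the highest without control replicate 3. Signal over background leaves *Meis3* and *Pknox2* in *Hottip* gRNA cells with no fold against the control.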
